A study of Arabidopsis thaliana with 6 samples.

Results

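*LOX3* (AT1G17420), *JAZ6* (AT1G72450), *ERF104* (AT5G61600), *CIPK15* (AT5G01810) and *CYP707A3* (AT5G45340) are 5 stress hormone genes among the 629 genes that the authors list as candidate targets of the BELL homeodomain protein ATH1. They were chosen by locus from that list, with their chromatin immunoprecipitation (ChIP-seq) values already known, so the values below describe them and no test was run on them. Each gene is examined within its listed window, the stretch of the TAIR10 genome that the authors searched for its peaks. Over the 5 windows, 4 held a region shared by all ATH1-GFP libraries and free of wild-type peaks, beside 69.3% of the 629 listed genes. At *ERF104* this region was only 9 nt long. The sites at *LOX3* all met wild-type peaks.

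The 3 ATH1-GFP libraries came from *ath1-3* plants carrying *pATH1:ATH1-GFP*, a fusion of ATH1 to GFP driven by the *ATH1* promoter, in a single line with a single copy of the transgene. The 3 wild-type libraries came from plants without GFP, labeled Landsberg-*erecta* on the samples but Columbia in the description of the series and in the study's methods. The labels give 2 wk of growth with 16 h of light, whereas the methods give longer growth in short days, and which applies was not resolved. Both genotypes were seedling shoots without leaves and roots. They were cut from 1 to 2 g of seedlings per replicate according to the labels, whereas the methods give a larger amount. Both were precipitated with the same anti-GFP beads, so that wild-type peaks mark sites recovered without the fusion protein. The study pairs *ath1-3* with Columbia as its wild type. If the Landsberg-*erecta* label holds, a peak in a single genotype cannot be told apart from a difference of accession.

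Jasmonate, ethylene and abscisic acid (ABA) carry signals of wounding, pathogen attack and drought, and they also restrain growth. Jasmonate is made from linolenic acid in a chain that a lipoxygenase opens in the chloroplast, and it acts by causing the breakdown of JAZ repressors, which frees MYC transcription factors. Ethylene acts through EIN3-type transcription factors, which in turn induce ERF proteins. The level of ABA reflects synthesis and breakdown by hydroxylases of the CYP707A family, and calcium sensors of the CBL family pass stress signals on to CIPK kinases, some of which modulate ABA responses.

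Tags left after removal of duplicates by the authors numbered 10194418 to 15584829 per ATH1-GFP library and 3450182 to 13518524 per wild-type library, with the fewest in wild-type replicate 1. At a false-discovery rate below 0.001 (−log10 q of at least 3), the ATH1-GFP libraries had between 990 and 1593 peaks and the wild-type libraries between 356 and 665. A region was called shared where 1 peak of every ATH1-GFP library covered the same bases, and free where no wild-type peak at this threshold overlapped it. Fold enrichment is the number of tags piled up at the summit, the highest point of a peak, relative to the local background of the same library. It was not compared in size between genotypes, because the lists hold only sites that were called.

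The windows of the 5 genes held 29 ATH1-GFP peaks and 9 wild-type peaks that passed the threshold. Of the ATH1-GFP peaks, 10 overlapped a wild-type peak, 7 at *LOX3* and 3 at *JAZ6*, and 19 did not. Over the whole lists, 40.3% of ATH1-GFP peaks overlapped a wild-type peak. The summit itself lay under a wild-type peak for 8 of the 29, beside 37.7% of all ATH1-GFP peaks. Of the wild-type peaks in the windows, 6 overlapped an ATH1-GFP peak and 3 did not, beside 83% of all wild-type peaks with such an overlap, and 5 of the 9 had their summit under an ATH1-GFP peak, beside 79.1% of all. *ERF104*, *CIPK15* and *CYP707A3* had no wild-type peak in their windows, a state found in 66.5% of the listed genes.

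**Figure D1:**
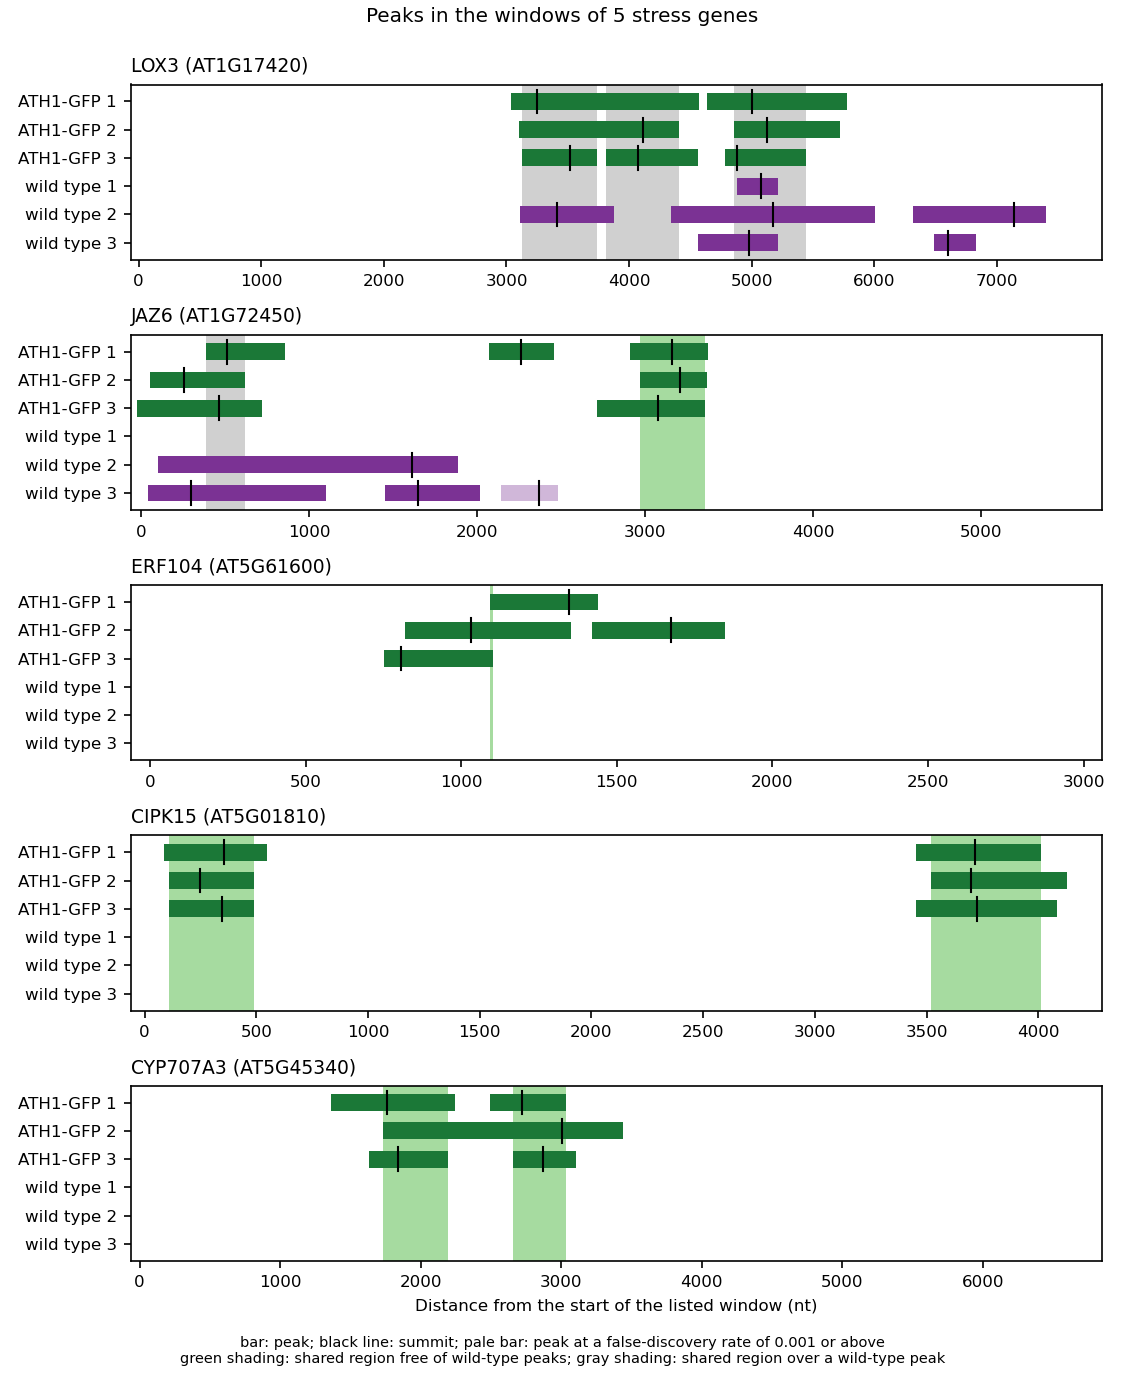
Peaks of the 3 ATH1-GFP libraries (green) and the 3 wild-type libraries (purple) along the listed windows of the 5 genes, in nt from the start of each window, with summits as black lines. Green shading marks the shared regions free of wild-type peaks, which occur at 4 genes, and gray shading the shared regions over wild-type peaks at *LOX3* and *JAZ6*.

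Peaks of the 3 ATH1-GFP libraries coincided in 10 regions, numbered here as sites from the start of each window. Of these, 6 were free and 4 overlapped wild-type peaks. Over all 721 shared regions, 42.9% were free. Of the 5 genes, 4 had a free region, beside 69.3% of all 629 listed genes, a share that the choice of these genes does not allow to be read further. At the strongest region of the same 4 genes, no ATH1-GFP summit lay under a wild-type peak, which held for 68.4% of the listed genes.

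*LOX3* encodes a chloroplast lipoxygenase of jasmonate synthesis that is induced by wounding. Its window spans 5974411 to 5982267 on chromosome 1 (7857 nt), and its 3 sites lay next to each other across the middle of the window. All 7 ATH1-GFP peaks there overlapped wild-type peaks, yet the extent of the overlap differed from site to site.

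At site 3 of *LOX3*, from 5979270 to 5979856, replicates 1, 2 and 3 of ATH1-GFP were enriched 2.22-fold, 2.12-fold and 1.60-fold, on average 1.98 ± 0.331 (SD, n = 3). Peaks of all 3 wild-type libraries lay over this site and together covered all of its 587 nt. In replicates 1, 2 and 3 of ATH1-GFP the summits were at 5979412, 5979534 and 5979292, each within a wild-type peak, and the summits of wild-type replicates 1, 2 and 3 were at 5979489, 5979586 and 5979387. Here the libraries of both genotypes therefore had peaks at the same place, and this was the sole peak of wild-type replicate 1, the library with the fewest tags, in any of the 5 windows. The average fold enrichment that the authors list for *LOX3* equals the mean at this site, although the study's methods ask for peaks found in no wild-type replicate.

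Site 1 of *LOX3*, from 5977536 to 5978146, averaged 1.91 ± 0.187 (SD, n = 3), from 1.95, 2.08 and 1.71 in replicates 1, 2 and 3 of ATH1-GFP. A single wild-type peak, found in replicate 2 between 5977524 and 5978284 (−log10 q 4.48), extended over all of its 611 nt. The other wild-type libraries had no peak there, so this site was free when wild-type replicate 2 was left out.

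Site 2 of *LOX3*, from 5978219 to 5978817, was covered only at its flanks. Wild-type replicate 2 reached over 130 of its 599 nt with separate peaks on either side, and left a gap of 469 nt from 5978285 to 5978753. The summits of ATH1-GFP replicates 2 and 3, at 5978527 and 5978485, lay in this gap. The peak of ATH1-GFP replicate 1 was a broad one of 1532 nt that spanned sites 1 and 2, and its summit at 5977658 lay under the wild-type peak at site 1. The fold enrichment at site 2 was 1.95, 2.08 and 1.86 in replicates 1, 2 and 3, of which the values of replicates 1 and 2 belong to the peaks also counted at site 1. Site 2 would be free if a wild-type peak had to cover at least 50% of the region, or without wild-type replicate 2.

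Wild-type peaks at *LOX3* also occurred where no ATH1-GFP library had a peak. That of wild-type replicate 2 spanned 5980724 to 5981811 and that of replicate 3 spanned 5980901 to 5981239, with −log10 q of 8.25 and 7.02. Wild-type peaks thus extended further toward the end of the *LOX3* window than the ATH1-GFP peaks did.

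*JAZ6* encodes a JAZ repressor, a family that jasmonate itself induces as part of a negative feedback. Its window spans 27273596 to 27279317 on chromosome 1 (5722 nt) and showed both kinds of site well apart. Site 2, from 27276566 to 27276955 (390 nt), was free, and site 1, from 27273980 to 27274215 (236 nt), lay wholly under peaks of wild-type replicates 2 and 3.

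The free site of *JAZ6* was enriched 2.26-fold, 1.88-fold and 1.96-fold in replicates 1, 2 and 3 of ATH1-GFP, on average 2.03 ± 0.204 (SD, n = 3). The value in replicate 1 was the highest, and those of replicates 2 and 3 were close to each other. The summits were at 27276758, 27276805 and 27276674, all within the region and 131 nt apart at most. The nearest wild-type peak that passed the threshold was 951 nt away, and the nearest deposited at any false-discovery rate 489 nt away. The same region falls within the window of AT1G72460, annotated as a leucine-rich repeat protein kinase, so the list does not assign it to *JAZ6* alone.

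At site 1 of *JAZ6*, replicates 1, 2 and 3 of ATH1-GFP gave 1.72, 1.94 and 1.89, and their average of 1.85 ± 0.113 (SD, n = 3) was the lowest of the 10 regions. All its ATH1-GFP summits lay under wild-type peaks. ATH1-GFP replicate 1 had a further peak from 27275667 to 27276055 that no other ATH1-GFP library shared. Its −log10 q of 3.39 was the lowest among the 29 ATH1-GFP peaks, just inside the threshold, and it met a peak of wild-type replicate 3 just outside it, with −log10 q of 2.74. Wild-type replicate 3 also had a peak without an ATH1-GFP counterpart, from 27275048 to 27275615, which overlapped the broad peak of wild-type replicate 2 from 27273693 to 27275482.

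*ERF104* encodes an ethylene-responsive transcription factor that is phosphorylated by the kinase MPK6 in the response to bacterial flagellin. Its window on chromosome 5, from 24765324 to 24768382, held ATH1-GFP peaks only, and these had fewer bases in common than at any of the other genes. The peak of ATH1-GFP replicate 1 spanned 24766416 to 24766762, those of replicate 2 spanned 24766145 to 24766675 and 24766745 to 24767172, and that of replicate 3 spanned 24766075 to 24766424. Only 9 nt, from 24766416 to 24766424, lay under a peak of every library, the shortest of the 721 shared regions. None of the summits of its 3 peaks, at 24766670, 24766354 and 24766132, fell within these bases.

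In pairs, the peaks of *ERF104* overlapped by 260 nt between ATH1-GFP replicates 1 and 2 and by 280 nt between replicates 2 and 3, against 9 nt between replicates 1 and 3. The 3 peaks that meet in these bases were enriched 1.99-fold, 1.88-fold and 1.75-fold in replicates 1, 2 and 3, with −log10 q of 5.40, 3.81 and 4.25. Their average of 1.87 ± 0.117 (SD, n = 3) was the lowest of the 5 genes at the strongest region. The header of the authors' table asks for an overlap of at least 50 nt, which the bases common to the 3 libraries do not reach, although the table counts 3 overlapping peaks for *ERF104*. No stretch of this length was found at 0.477% of the listed genes. The fold enrichment listed by the authors is 1.29. It equals the sum over replicates 1 and 2 divided by 3, whereas the mean of these replicates is 1.93.

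No wild-type peak lay closer than 1272 nt to the common bases of *ERF104*. A lack of wild-type peaks is thus shared by the whole cluster of ATH1-GFP peaks, while a site in all 3 ATH1-GFP libraries rested on 9 nt. When 50 nt common to all libraries were required, or a false-discovery rate below 0.0001, no shared region was left at *ERF104*.

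*CIPK15* encodes a kinase that binds calcium sensors of the CBL family and the ABA-related phosphatases ABI1 and ABI2, and that represses ABA responses. It had a free region near each end of its window, which spans 308908 to 313193 on chromosome 5. Site 1, from 309018 to 309395, was enriched 2.49-fold, 2.26-fold and 1.86-fold in replicates 1, 2 and 3 of ATH1-GFP, on average 2.20 ± 0.316 (SD, n = 3). Site 2, from 312427 to 312918, gave 2.32, 2.47 and 1.82, on average 2.20 ± 0.341 (SD, n = 3). Both sites had their lowest value in replicate 3, and their means differed by far less than the spread between libraries.

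The summits at site 2 of *CIPK15* were the closest of any of the 10 regions, at 312625, 312607 and 312632, a span of 25 nt, whereas those at site 1 spanned 107 nt. The nearest wild-type peak was 17615 nt from site 1 and 19108 nt from site 2. Each site is shared with a neighboring gene of the list. Site 1 also lies in the window of AT5G01800, annotated as a saposin B domain protein, and site 2 in that of AT5G01820 (*CIPK14*), another CIPK kinase. The authors' average for *CIPK15* is that of site 1 and their average for *CIPK14* that of site 2.

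*CYP707A3* encodes a hydroxylase that breaks down ABA. Its window spans 18367142 to 18373991 on chromosome 5 (6850 nt) and lies far from any wild-type peak, the nearest being 135228 nt from site 2. ATH1-GFP replicates 1 and 3 each had separate peaks at site 1, shared from 18368873 to 18369334, and site 2, shared from 18369797 to 18370172. In replicate 2 a single peak of 1712 nt covered both.

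At site 2 of *CYP707A3*, replicates 1, 2 and 3 of ATH1-GFP gave 2.10, 2.08 and 1.79, on average 1.99 ± 0.176 (SD, n = 3). At site 1 they gave 2.00, 2.08 and 1.79, on average 1.96 ± 0.146 (SD, n = 3). The value of replicate 2 is the same at both because it belongs to the same peak. Its summit at 18370149 lay in site 2, where the summits of the 3 libraries spanned 287 nt. Site 1 held the summits of replicates 1 and 3, at 18368905 and 18368982, and its call in replicate 2 came from the flank of a peak centered elsewhere.

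**Figure D2:**
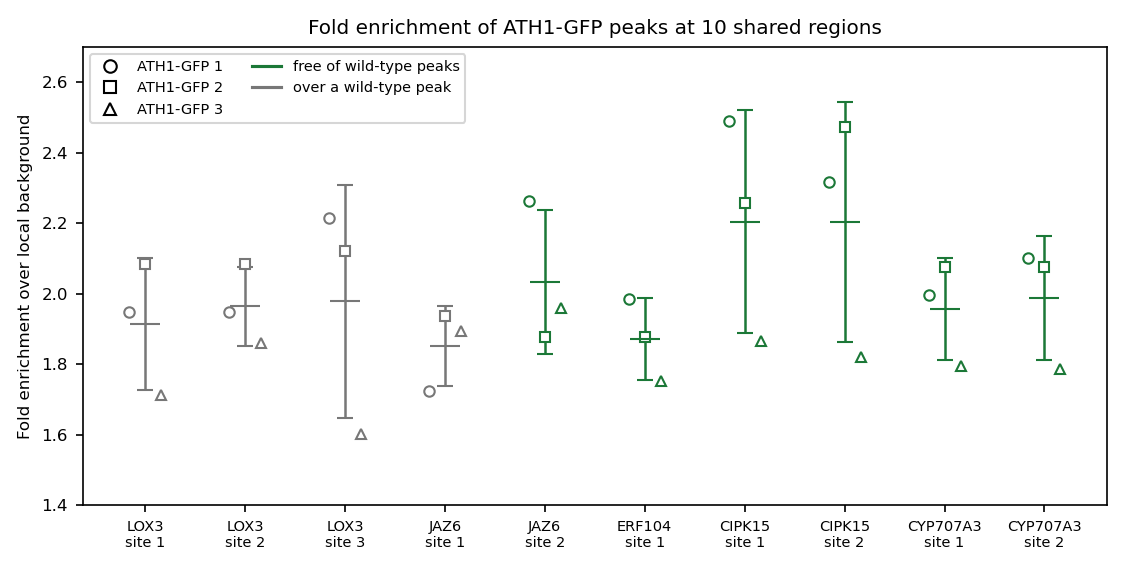
Fold enrichment over local background (vertical axis, starting at 1.4) at the 10 shared regions of the 5 genes, with a symbol for each ATH1-GFP library and the mean ± SD of the 3 libraries. Means lie between 1.85 and 2.20, and replicate 3 is the lowest at 8 of the 10 regions, the exceptions being both sites of *JAZ6*.

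Ordered by the mean at the strongest region, *CIPK15* (2.20) came first, followed by *JAZ6* (2.03), *CYP707A3* (1.99), *LOX3* (1.98) and *ERF104* (1.87). No neighbors in this order differed by more than the SD over libraries, and none kept its order in all 3 libraries. The ends of the order were slightly further apart than the spread, by 0.332 on average beside an SD of 0.316 at *CIPK15*. *CIPK15* was above *ERF104* by 0.504, 0.383 and 0.111 in replicates 1, 2 and 3. Both genes are the extremes of an order made from these same values, so their gap is a description. ATH1-GFP replicate 3 gave the lowest value at 8 of the 10 regions, a feature of that library at 88.5% of all 721 shared regions. The order changed with another measure, the tags piled up at the summit per 1000000 filtered tags, which averaged 10.3 at *LOX3*, 8.71 at *JAZ6*, 8.16 at *CIPK15*, 7.24 at *CYP707A3* and 6.63 at *ERF104*.

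All 10 regions ranked below the median of the 721 shared regions, which was 2.28. The highest, site 1 of *CIPK15*, exceeded 42.3% of them in mean fold enrichment and 40.1% of the 309 free regions. The free site of *JAZ6* exceeded 16.2% of the free regions, site 2 of *CYP707A3* 11.0% and *ERF104* 1.94%. The sites of *CIPK15* thus stood somewhat below the middle of the shared regions, and those of the other genes among the weaker ones. Among all peaks of each ATH1-GFP library, the strongest region of *CIPK15* exceeded 58.0% on average, and those of the other genes 23.3% (*ERF104*) to 43.5% (*JAZ6*). The medians of free regions (2.29) and of regions over wild-type peaks (2.28) were close to each other.

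**Figure D3:**
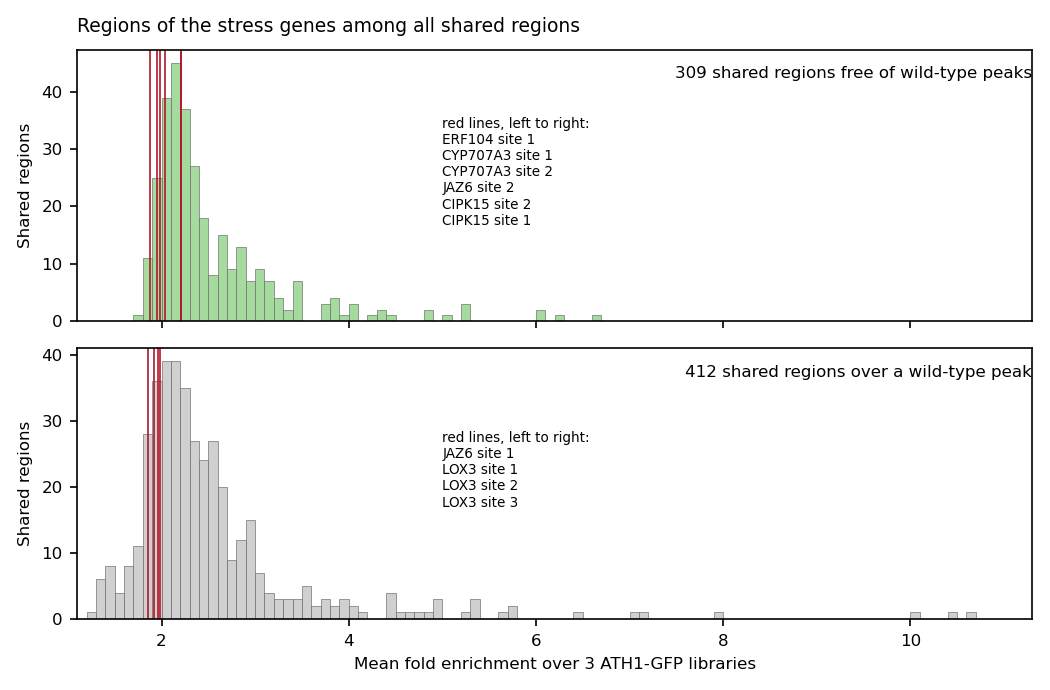
Number of shared regions by their average fold enrichment in 3 ATH1-GFP libraries, for 309 regions free of wild-type peaks (top) and 412 regions over a wild-type peak (bottom). Red lines mark the 10 regions of the 5 genes, between 1.85 and 2.20 and all below the median of 2.28 of all shared regions.

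The genes also varied in how closely the 3 ATH1-GFP libraries placed their summits. Over all shared regions, the outermost of the 3 summits were a median of 107 nt apart. At sites 1 and 2 of *CIPK15* this span was 107 and 25 nt, and at the free site of *JAZ6* 131 nt. It was 242 nt at site 3 of *LOX3*, 538 nt at *ERF104*, 869 nt at sites 1 and 2 of *LOX3* and 1244 nt at site 1 of *CYP707A3*, where a broad peak in a single library joined sites that the others kept apart. Only 6 of the 721 shared regions were shorter than 50 nt, and that of *ERF104* was one of them.

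**Figure D4:**
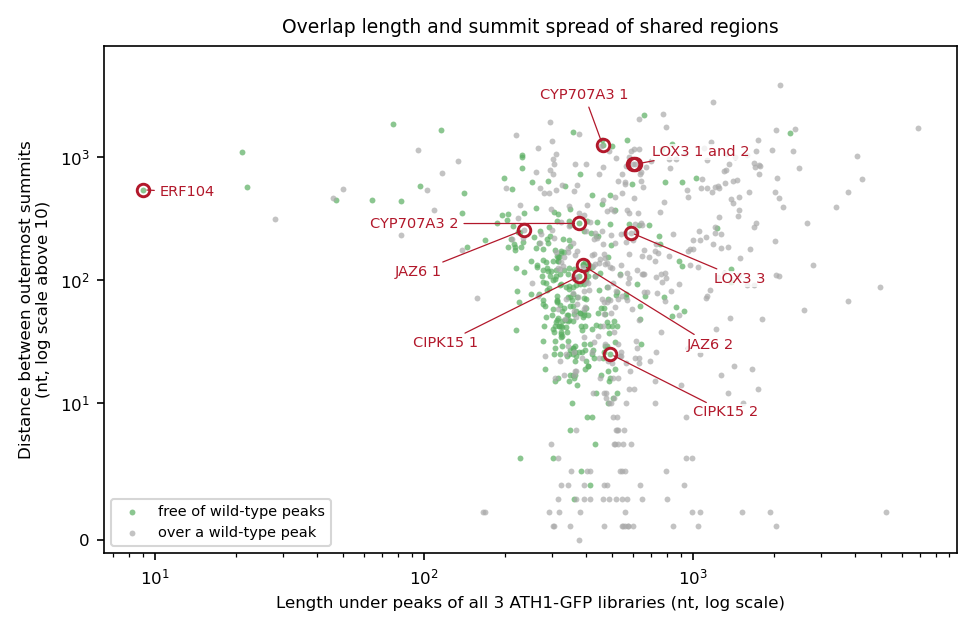
Length under peaks of all 3 ATH1-GFP libraries (horizontal, log scale) against the distance between the outermost of their 3 summits (vertical, log scale above 10 nt) for all 721 shared regions, with the regions of the 5 genes circled in red and numbered by site. *ERF104* is at the far left with 9 nt, and site 2 of *CIPK15* has summits within 25 nt.

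To place the 5 genes in their pathways, 118 genes of jasmonate, ethylene and ABA synthesis and signaling, of the ERF subfamily of *ERF104* and of the CIPK family were looked up in the authors' table. Of these, 15 were listed (12.7%), the 5 genes included, and 10 of the remaining 113 (8.85%), beside 2.18% of the protein-coding loci in RefSeq. Those 10 include *CIPK14*, whose region is also site 2 of *CIPK15*. The lists were drawn up with results of these data known, so these shares are no evidence that the pathways stand apart. Among the 15, a free region was found at 11, a share close to the 69.3% of all listed genes, and only regions over wild-type peaks at 4, namely *LOX3*, *OPR3*, *JAZ7* and *ACS6*.

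Of the 11 genes of jasmonate synthesis, 3 were listed. *OPR3*, the peroxisomal reductase of the pathway, had its strongest region on chromosome 2 from 2358843 to 2360605 with a mean fold enrichment of 2.65 ± 0.400 (SD, n = 3), overlapped by peaks of 2 wild-type libraries. *LOX4*, a close relative of *LOX3*, lies near *JAZ6*, with 26197 nt between their windows. It had a free region from 27309580 to 27309810, with 1.85 ± 0.161 (SD, n = 3). The 3 ATH1-GFP summits, at 27310453, 27309854 and 27309466, all lay outside this region, and 1 of them lay under a wild-type peak. Of the 17 genes of jasmonate signaling, *JAZ6* and *JAZ7* were listed, and the region of *JAZ7* (2.28 ± 0.0581, SD, n = 3) lay over peaks of 2 wild-type libraries. *JAZ6* was thus the sole JAZ gene in the authors' table with a free region.

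Of the 15 genes of ethylene synthesis and signaling, 3 were listed. *EBF1*, an F-box protein that degrades EIN3, had a free region with 2.72 ± 0.571 (SD, n = 3), and *MPK3*, a kinase of the stress response, had one with 2.21 ± 0.273 (SD, n = 3). *ACS6*, which makes the precursor of ethylene, had 2.78 ± 0.465 (SD, n = 3) over peaks of 2 wild-type libraries. In the ERF subfamily, *ERF104*, *ERF5* (2.34 ± 0.489, SD, n = 3) and *ERF13* (2.04 ± 0.339, SD, n = 3) were the 3 listed of 13. All had a free region, beside 69.3% of all listed genes, though that of *ERF104* was only 9 nt long. At *ERF13*, the summits of ATH1-GFP replicates 1 and 2, at 18495520 and 18496549, lay outside the region, and 1 of them lay under a wild-type peak.

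*CYP707A3* was the only one listed of 13 genes of ABA synthesis and breakdown (7.69%). *SNRK2.3*, a kinase activated by ABA, was the only one of 23 signaling genes (4.35%). *CIPK14* and *CIPK15* were the only ones of 26 CIPK genes (7.69%). The share of protein-coding loci was 2.18%. Because *CYP707A3* and *CIPK15* were chosen from the listed genes, the shares that count them cannot be read against it. *SNRK2.3* had a free region with 2.41 ± 0.602 (SD, n = 3), highest in ATH1-GFP replicate 1 (3.10) and lower in replicates 2 and 3 (2.14 and 1.98). The regions of *JAZ7*, *EBF1*, *MPK3*, *ERF13*, *SNRK2.3* and *CIPK14* also lie in the window of another listed gene, for *CIPK14* that of *CIPK15*.

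**Figure D5:**
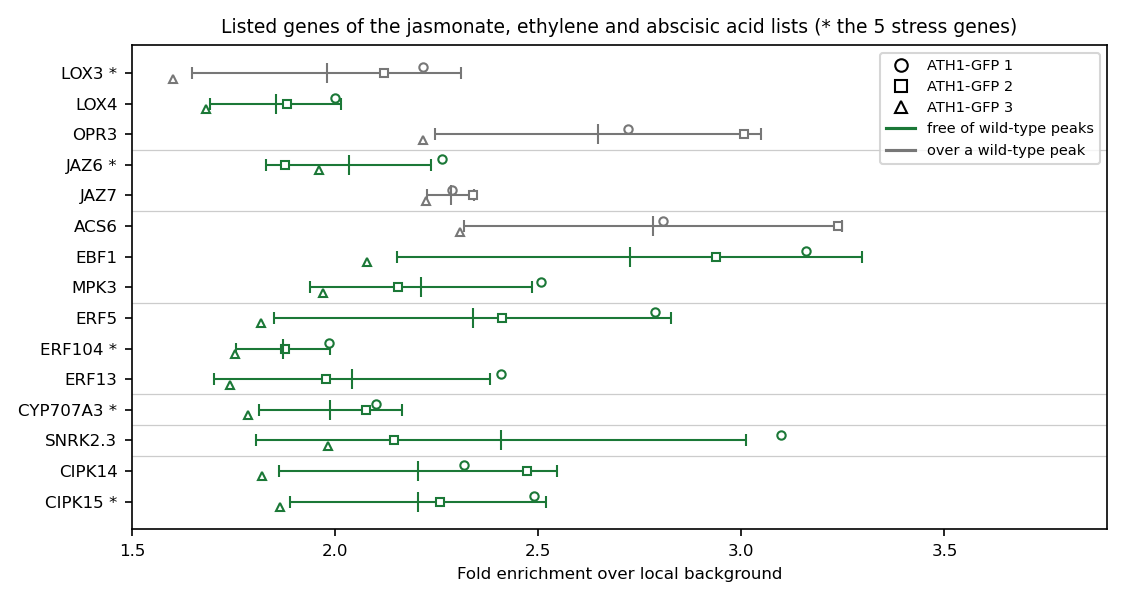
Fold enrichment over local background (horizontal axis, starting at 1.5) at the strongest region of the 15 listed genes of the pathway lists, with a symbol for each ATH1-GFP library and the mean ± SD (n = 3). The 11 genes with a free region are in green, the 4 with regions over wild-type peaks in gray, and the 5 stress genes carry an asterisk.

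The listed genes whose fold enrichment over the 3 ATH1-GFP libraries was nearest to that of each gene were found by the Euclidean distance of log2 values, among genes of the same status, outside the lists and with no region in common. For *CIPK15* they were AT5G15940 (distance 0.023) and AT1G13240 (0.056), for *JAZ6* AT1G25275 and AT1G25280 (0.058 for both, which share a region), and for *CYP707A3* AT4G32060 and AT4G32070 (0.030 for both, which share a region). For *ERF104* they were AT3G27960 (0.053) and AT1G51140 (0.062), and for *LOX3* AT1G02400 (*GA2ox6*, 0.12) and AT5G35735 (0.14). With 3 libraries, of which replicate 3 is mostly the lowest, such nearness is a description of levels.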

How the data were processed

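The authors mapped single-end reads to TAIR10 with Bowtie2 (version not given in the sources used here) and called peaks in each library with MACS 2.0.10.20130915, without a control library, keeping 1 tag per position, extending tags to 300 nt and setting a q cutoff of 0.05 and a genome size of 90000000. In the deposited lists, fold enrichment is a ratio to the local background of the same library, pileup is a signal in tags at the summit, and −log10 p and −log10 q were computed by the authors with MACS. The authors' table of targets gives windows, the counts of overlapping peaks deposited for each gene, and averages of fold enrichment and −log10 q, with a −log10 q cutoff of 3, an overlap of at least 50 nt and, per its header, windows that reach 3000 nt before and 1500 nt past coding sequences. The windows of *ERF104* (3059 nt) and *CIPK15* (4286 nt) are shorter than these lengths together. The study's methods also require that no further gene lies between a peak and its target, and whether this shortened the windows was not analysed here.

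Overlaps of at least 1 nt among peaks below a false-discovery rate of 0.001 were found with Python 3.11.15, numpy 2.4.6 and pandas 2.3.3, and tested on simulated data. Each gene took its strongest free region by mean fold enrichment, and genes without one their strongest shared region. Percentiles are shares of regions with a lower value. The members and lists were chosen with earlier results of these data known, and named genes are these, their neighbors and, for each, the 2 nearest in level. The symbols of the 5 genes match RefSeq. Those of the pathway lists were set with the lists, so AT5G01820 is called *CIPK14* here but *SR1* in RefSeq. No sequence or transcript position was used here. Means are limited by 3 libraries per genotype, and no peak in a wild-type library is least informative in replicate 1, which had 3450182 tags. Wild-type replicate 3, with 6689302, was also below every ATH1-GFP library. Only wild-type replicate 2, with 13518524, was within their range. Alternatives were other false-discovery rates, overlaps, window rules, measures and each library left out.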

Additional observations from a re-analysis of the deposited data

How the results depend on the processing

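A free region was present at 4 of the 5 genes, and leaving out single libraries gave 4 to 5. The number was 5 without wild-type replicate 2 and where a wild-type peak had to cover 50% of a region, both through *LOX3*. It was 3 at a false-discovery rate below 0.0001, with 50 nt common to the ATH1-GFP libraries and with 50% of the shortest peak, each time through *ERF104*. Genes with no summit of the strongest region under a wild-type peak numbered 4 to 5 when libraries were left out, with 5 also without ATH1-GFP replicate 1, when the strongest region of *LOX3* was its site 2. Listed genes with a free region numbered 434 to 504 when libraries were left out. The mean fold enrichment was 1.81 to 1.97 for *ERF104* and 1.91 to 2.17 for *LOX3* when libraries were left out. With tags at the summit scaled to library size, *LOX3* ranked 1, *CIPK15* 3 and *CYP707A3* 4 among the 5 genes, in place of 4, 1 and 3. No paired analysis was possible because no value was tested between the genotypes, while differences between genes were taken within each ATH1-GFP library.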

Other observations

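For 625 of the 629 listed genes, the authors' average fold enrichment equaled, within 1e-05, the mean over the 3 ATH1-GFP libraries of a shared region in the window. For 3 genes it equaled the sum over 2 libraries divided by 3, namely *ERF104* and the neighbors AT1G77932 and AT1G77940, which, like AT5G64320, were named after their values were seen. These 3 genes were also the only ones of the list (0.477%) with no stretch of 50 nt or more under peaks of all 3 ATH1-GFP libraries, the longest being 9 nt at *ERF104* and 47 nt at AT1G77932 and AT1G77940. The remaining gene, AT5G64320, is listed at 0. By the authors' average, *ERF104* stood at place 2 from the bottom of the list with 1.29, whereas its mean over 3 libraries was 1.87.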
